A study of Mus musculus with 6 samples.

Results

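The 10 genes described here encode proteoglycans, a hyaluronan synthase and a hyaluronan receptor: Bgn, Dcn, Lum, Ogn, Vcan, Has2, Sdc2, Sdc3, Sdc4 and Cd44. They were chosen by gene symbol from the 24940 genes of a deposited exon count table, with earlier results of these data known. The table holds 6 libraries of polyadenylated RNA from cultured primary hepatic stellate cells, the pericytes of the liver sinusoid, isolated from wild-type female C57BL/6JBomTac mice. The 3 libraries of the OCA+VIP group came from cells given 10 µM obeticholic acid (OCA), a bile acid derivative that activates the nuclear receptor FXR, 2 days after isolation. The 3 libraries of the DMSO+VIP group came from cells given the vehicle, DMSO at 1:1000. After 3 h, both groups received 500 nM vasoactive intestinal peptide (VIP), a neuropeptide that acts through cAMP, for 3 h more. OCA and vehicle were thus compared in the presence of VIP. The sources used here give neither the ages of the mice nor whether each library had its own animal or culture, so the p-values measure only the spread between these libraries, which may be technical.

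Proteoglycans are proteins that carry long sulfated sugar chains, the glycosaminoglycans. The small leucine-rich proteoglycans biglycan, decorin, lumican and osteoglycin are secreted and bind collagen fibrils, and versican is a large chondroitin sulfate proteoglycan that binds hyaluronan. Hyaluronan is a glycosaminoglycan without a core protein that is spun out at the plasma membrane by the HAS enzymes and bound by the receptor CD44. Syndecans are transmembrane heparan sulfate proteoglycans that hold growth factors at the cell surface and act as co-receptors of integrins. In injured liver, stellate cells that become myofibroblasts are a main source of fibrillar matrix and of these proteins.

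Total counts were 2839106 to 4574160 in the DMSO+VIP libraries and 4534360 to 9947968 in the OCA+VIP libraries. Low counts came in steps: of the counts above 0 and up to 30, 37.5% to 58.2% per library lay within 0.5 of a multiple of 6, where an even spread over the table's steps of 0.5 gives 25%. A count of 0 was therefore taken to allow 3 steps of 6, or 18 counts over the 3 libraries of a group, which is 1.61 CPM (counts scaled to a common library total) in DMSO+VIP and 0.887 CPM in OCA+VIP and covers counting error only. The label of the cells was checked against 10 stellate cell markers, all of which were detected and which summed to 734 to 990 CPM with DMSO+VIP and to 707 to 887 CPM with OCA+VIP. Of these, Colec11 rose and Des fell. Summed markers of portal fibroblasts were 1.74 to 4.23 and 1.86 to 2.07 CPM with Thy1 at 0, and those of mesothelial cells were 0 to 1.31 and 1.32 to 2.92 CPM with Msln, Upk3b and Lrrn4 at 0. Macrophage markers summed to 15.3 to 36.8 and 28.3 to 42.7 CPM with Ptprc and Timd4 at 0, endothelial markers to 1.61 to 6.67 and 7.39 to 12.2 CPM, and cholangiocyte markers to 6.16 to 14.9 and 14.7 to 19.8 CPM with Krt7 at 0. Of the lymphocyte markers Cd79a rose, from 0 to between 3.67 and 8.35 CPM, and Cd3e was at 0. Summed hepatocyte markers were 69.7 to 76.9 CPM with DMSO+VIP and 239 to 398 CPM with OCA+VIP, and 9 of the 10 rose while Cps1 was at 0.

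With OCA before VIP, the RNA of decorin (Dcn) and syndecan-4 (Sdc4) rose 1.97-fold each and that of syndecan-3 (Sdc3) fell 2.22-fold. Biglycan (Bgn) and Cd44, both abundant, had fold changes near 1 that did not pass the test. Versican (Vcan), lumican (Lum) and Sdc2 did not pass it either, osteoglycin (Ogn) was too low to be tested, and Has2 had no counts. Of the 8 members that passed the filter on low counts, 2 were thus higher and 1 lower (edgeR's quasi-likelihood F test, with p adjusted by Benjamini-Hochberg over 11286 genes and called under 0.05). Among all tested genes 11.8% were called, 5.72% higher and 6.04% lower. The 10 members together took 0.1002% ± 0.00659 of all counts with DMSO+VIP and 0.101% ± 0.00406 with OCA+VIP (SD, n = 3 libraries per group), and their summed level was 1002 ± 65.9 and 1012 ± 40.6 CPM. In bulk RNA, fewer cells of a type and less RNA per cell cannot be told apart.

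**Figure D1:**
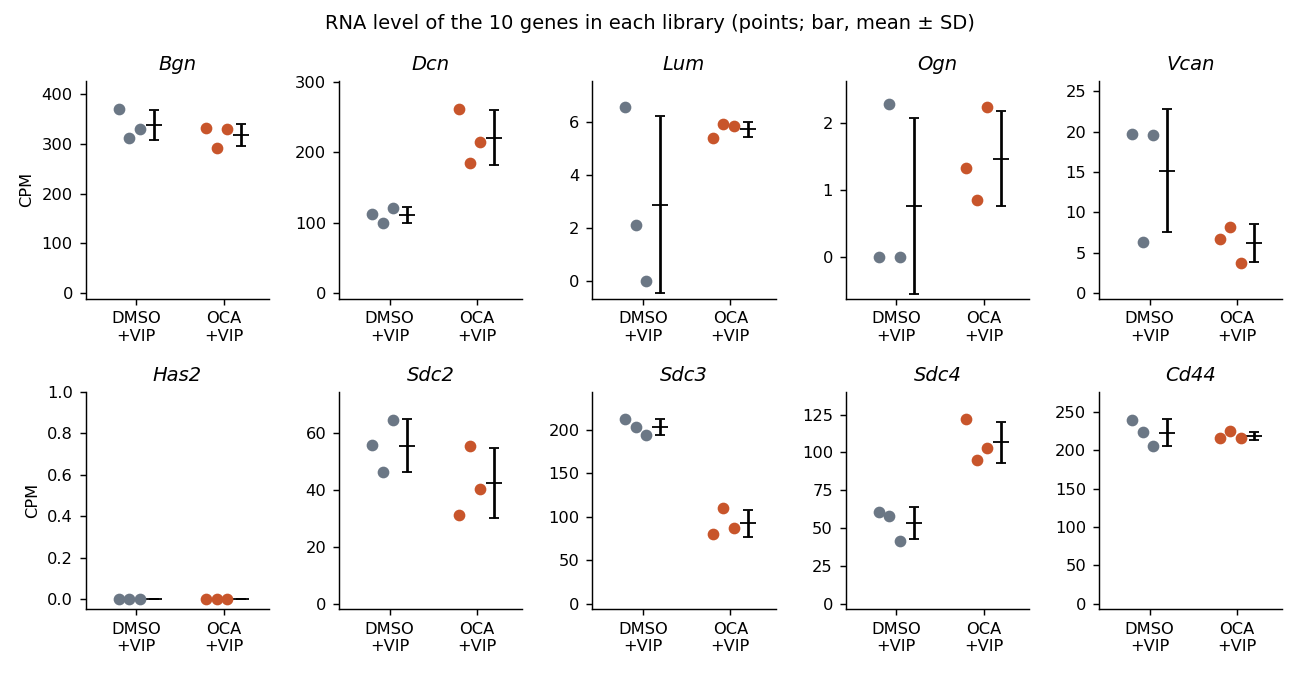
CPM (counts scaled to the column total) of each of the 10 genes, with a point for each library in the order of the library numbers, and the mean with the SD of 3 libraries beside them; each panel has its own scale. The groups do not overlap for Dcn, Sdc3 and Sdc4, overlap for Bgn, Lum, Ogn, Vcan, Sdc2 and Cd44, and all 6 values of Has2 are 0. Of all tested genes, 30.6% have groups that do not overlap, counting both directions.

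Decorin binds type I collagen fibrils and several growth factors, among them TGF-beta. Its gene (NM_007833, chromosome 10, 97482331 to 97518163, mm10) had 112, 99.2 and 121 CPM in DMSO+VIP libraries 1 to 3 and 261, 185 and 215 CPM in OCA+VIP libraries 1 to 3. Every OCA+VIP library thus lay above every DMSO+VIP library, a separation in either direction that was found for 30.6% of all tested genes. The means were 111 ± 11.1 and 220.5 ± 38.5 CPM (SD, n = 3), and the log2 fold change reached 0.98 with an SE of 0.15 (edgeR adjusted p = 0.000107). In fits that left out 1 library it was 0.80 to 1.13, with adjusted p up to 0.00330. Portal fibroblasts and mesothelial cells also make decorin, and their summed markers did not exceed 4.23 and 2.92 CPM in any library. Their part in the level of Dcn was not tested.

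Biglycan, a close relative of decorin, is a matrix protein that can also signal through Toll-like receptors when released. Bgn (NM_007542, chromosome X, 73483601 to 73495936) had 371, 313 and 331 CPM with DMSO+VIP and 333, 293 and 329 CPM with OCA+VIP. The 2 groups overlapped, with means of 338 ± 29.8 and 318 ± 22.1 CPM (SD, n = 3), and the difference of -0.10 on the log2 scale (SE 0.12, edgeR adjusted p = 0.667) did not pass the test. The level of decorin relative to biglycan, per kilobase of exon, was 0.403, 0.424 and 0.490 with DMSO+VIP and 1.05, 0.845 and 0.873 with OCA+VIP. This ratio, which does not depend on library scaling, was 2.10-fold higher on average with OCA.

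Lumican and osteoglycin are small leucine-rich proteoglycans that regulate the thickness of collagen fibrils. Lum (NM_008524, chromosome 10, 97565501 to 97572703) lies 47.3 kb from Dcn in the same orientation. It had 6.56, 2.11 and 0 CPM with DMSO+VIP, from 36 counts in all, and 5.40, 5.93 and 5.86 CPM with OCA+VIP, from 117.5 counts. The OCA+VIP libraries lay close together and within the range of the vehicle libraries, and the difference of 0.92 on the log2 scale (SE 0.87, edgeR adjusted p = 0.551) did not pass the test. Kera and Epyc, the next small leucine-rich proteoglycan genes of that stretch of chromosome 10, had no counts in any library. Ogn (NM_008760, chromosome 13, 49608071 to 49624500) had 6.5 counts in all with DMSO+VIP, fewer than the 18 that a count of 0 allows, and 27.5 with OCA+VIP, so no fold is given. Its neighbours Omd and Aspn were at 0 throughout. Ecm2, which lies beyond Aspn, had 30 and 97 counts over the groups. It did not pass (0.66 on the log2 scale with SE 0.92, edgeR adjusted p = 0.712). Kera, Epyc, Omd, Aspn and Ecm2 belong to the list of related genes and were chosen here for their positions and after their values were seen.

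Within the 4 small leucine-rich proteoglycan genes, levels per kilobase of exon gave Bgn 70.2%, 69.5% and 67.1% of the summed level in DMSO+VIP libraries 1 to 3 and 48.2%, 53.4% and 52.6% in OCA+VIP libraries 1 to 3. The share of Dcn was 28.3%, 29.5% and 32.9% with DMSO+VIP and 50.7%, 45.2% and 45.9% with OCA+VIP. Both shares separated the groups, by 17.5 points lower for Bgn and 17.0 points higher for Dcn, and Lum and Ogn together held the small remainder in every library. The fall in the share of Bgn thus mirrors the rise in that of Dcn and is not a separate result. Bgn itself did not pass the test. With 3 libraries against 3, the two-sided exact permutation test cannot go below p = 0.1, which both shares reached (adjusted p = 0.175 over 7 shares).

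Versican is a provisional matrix proteoglycan, cleaved by ADAMTS proteases. Vcan (NM_001081249, chromosome 13, 89655310 to 89742512) had 19.7, 6.34 and 19.6 CPM with DMSO+VIP and 6.73, 8.24 and 3.70 CPM with OCA+VIP. DMSO+VIP library 2 lay among the OCA+VIP libraries, so the groups overlapped. The means were 15.2 ± 7.66 and 6.22 ± 2.31 CPM (SD, n = 3), and the difference of -1.31 on the log2 scale (SE 0.47, edgeR adjusted p = 0.0761) did not pass the test. Without DMSO+VIP library 2 it was -1.66 and passed (adjusted p = 0.0186), and DESeq2 on all 6 libraries also called it (-1.31, adjusted p = 0.0237).

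Has2, the hyaluronan synthase most often studied in activated fibroblasts (NM_008216, chromosome 15, 56665627 to 56694546), had a count of 0 in all 6 libraries. At this depth the count allows up to 1.61 CPM in DMSO+VIP and 0.887 CPM in OCA+VIP, and a change below these levels was not detectable. The other synthase genes were low: Has1 had 8.95 ± 4.35 and 6.53 ± 1.18 CPM (SD, n = 3; log2 fold -0.47 with SE 0.55, edgeR adjusted p = 0.650), and Has3 had 9.5 and 21.0 counts over the groups and was not tested. Has1 and Has3 were chosen after their values were seen.

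CD44 is the main cell surface receptor for hyaluronan and also binds osteopontin and collagens. Cd44 (NM_001177785, chromosome 2, 102811142 to 102901665) had 239.6, 223 and 205 CPM with DMSO+VIP and 216, 225 and 215 CPM with OCA+VIP. The groups overlapped, with means of 223 ± 17.1 and 219 ± 5.37 CPM (SD, n = 3). Its difference of -0.04 on the log2 scale (SE 0.12, edgeR adjusted p = 0.861) did not pass the test, and in fits that left out 1 library it was -0.10 to 0.0016. Cd44 is also made by leukocytes. Among their markers Ptprc was at 0 in all 6 libraries, Cd68 had 20.5 ± 5.61 and 30.6 ± 5.92 CPM (SD, n = 3), and Cd79a was found in the OCA+VIP libraries as given above. Their part in the level of Cd44 was not tested.

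The 3 syndecan genes measured as members differ in the tissues they are best known from: Sdc2 in mesenchymal cells, Sdc3 in nerve and muscle, and Sdc4 in most adherent cells, where syndecan-4 sits in focal adhesions. Sdc3 and Sdc4 moved in opposite directions and were picked for that, after their values were seen, to show the 250 bases before their RefSeq starts. Whether these sequences bear on the contrast was not tested. Promoter windows of 6 of the 10 members (Cd44, Sdc4, Sdc3, Ogn, Vcan and Bgn) are in the RefSeq table used (GRCm38.p6, the build of mm10). Dcn, which also rose, has no window there. The sequences run 5′ to 3′ on the strand of the gene, with matches to the searched motifs in capitals: AGGTCA in Sdc4 and CGTCA, which reads TGACG on the other strand, in Sdc3.
Sdc4, chr2:164443189-164443438, minus strand: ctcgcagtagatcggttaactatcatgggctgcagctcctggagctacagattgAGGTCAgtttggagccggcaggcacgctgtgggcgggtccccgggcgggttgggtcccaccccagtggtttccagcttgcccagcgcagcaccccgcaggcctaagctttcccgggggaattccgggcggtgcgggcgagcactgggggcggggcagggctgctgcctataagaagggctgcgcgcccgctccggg
Sdc3, chr4:130792287-130792536, plus strand: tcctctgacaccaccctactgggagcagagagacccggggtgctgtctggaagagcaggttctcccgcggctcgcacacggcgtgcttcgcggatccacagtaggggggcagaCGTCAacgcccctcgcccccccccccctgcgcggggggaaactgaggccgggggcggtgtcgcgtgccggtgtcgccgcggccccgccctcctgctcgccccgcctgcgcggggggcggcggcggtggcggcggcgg

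Both windows are rich in G and C, 68.0% for Sdc4 and 76.4% for Sdc3 against a median of 52.4% over 32851 windows of the same length, and hold 19 and 32 CpG dinucleotides against a median of 6. The motifs searched on both strands were the FXR inverted repeat and its single hexamer AGGTCA, the cAMP response element TGACGTCA and its shorter form TGACG, the AP-1 site TGANTCA, the TEAD site GGAATG, the EGR site GCGGGGGCG and the CArG box. AGGTCA and TGACG lie within the whole sites. AGGTCA begins at position -196 from the Sdc4 start, and 14.0% of all windows hold this motif. TGACG lies at position -137 in Sdc3, on the strand opposite to the gene, and 17.8% of all windows hold it. In the other 4 windows, the only match was a GGAATG at -86 in Ogn, a motif held by 12.6% of windows. A match is a description of letters and not a measured binding site.

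Sdc3 (NM_011520, chromosome 4, 130792537 to 130826318) had 212, 203 and 193 CPM with DMSO+VIP and 80.5, 109.6 and 86.8 CPM with OCA+VIP. All OCA+VIP libraries lay well below all DMSO+VIP libraries, and 13.9% of all tested genes were lower without overlap. The means were 202 ± 9.19 and 92.3 ± 15.3 CPM (SD, n = 3), a 2.22-fold fall of -1.15 on the log2 scale (SE 0.13, edgeR adjusted p = 2.96e-06). It was -1.25 to -1.09 in fits that left out 1 library. The antisense genes Gm26716 and Gm12970 share 6.93% and 0.801% of the exon bases of Sdc3, and whether counting used strand is not given in the sources used here.

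Sdc4 (NM_011521, chromosome 2, 164424247 to 164443188) had 60.7, 57.9 and 41.7 CPM with DMSO+VIP and 122, 94.7 and 103.2 CPM with OCA+VIP. The lowest OCA+VIP library was above the highest DMSO+VIP library, as for 16.8% of all tested genes. The means were 53.4 ± 10.3 and 107 ± 13.9 CPM (SD, n = 3), a difference of 0.98 on the log2 scale (SE 0.17, edgeR adjusted p = 0.000597) that ranged from 0.83 to 1.10 when 1 library was left out. Hepatocytes also express Sdc4, and hepatocyte markers were higher in the same OCA+VIP libraries, with summed levels given above. Their part in the rise of Sdc4, and in the other differences between the groups, was not tested.

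Sdc2 (NM_008304, chromosome 15, 32920723 to 33034721) had 56.0, 46.3 and 64.7 CPM with DMSO+VIP and 31.2, 55.6 and 40.5 CPM with OCA+VIP. The groups overlapped, and OCA+VIP library 2 lay close to DMSO+VIP library 1. The difference of -0.41 on the log2 scale (SE 0.20, edgeR adjusted p = 0.202) did not pass the test. Without the library numbered 2 of each group it was -0.71 and passed (adjusted p = 0.0470).

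**Figure D2:**
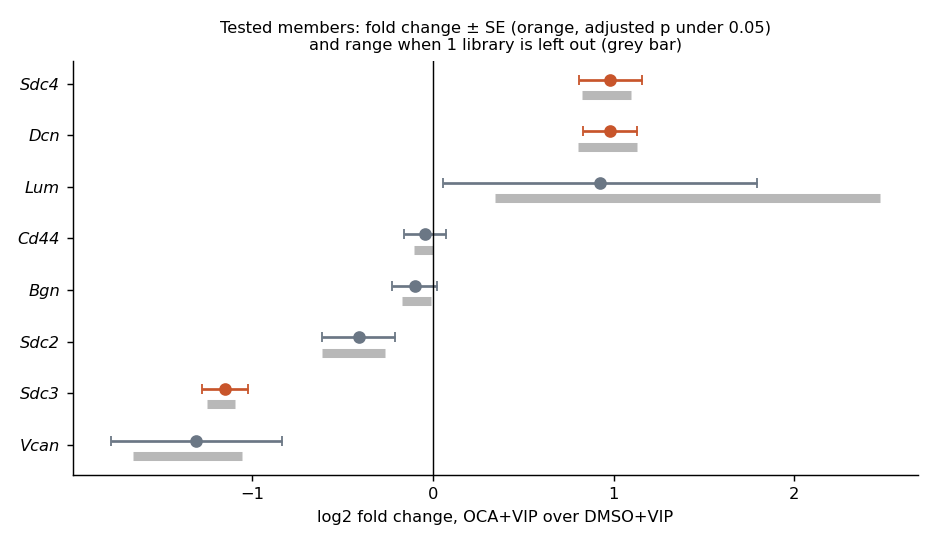
Log2 fold change of OCA+VIP over DMSO+VIP for the 8 tested members from edgeR (points, with the SE; orange where the adjusted p is under 0.05), with a grey bar for the range over the 6 fits that each left out 1 library. Dcn and Sdc4 lie at 0.98 and Sdc3 at -1.15 with bars away from 0, while the bar of Lum runs from 0.34 to 2.47.

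Within the 3 syndecans, levels per kilobase of exon gave Sdc3 50.6%, 52.0% and 51.6% of the summed level with DMSO+VIP and 21.5%, 28.5% and 24.4% with OCA+VIP. Sdc4 held 29.4%, 30.1% and 22.5% with DMSO+VIP and 65.9%, 49.8% and 58.6% with OCA+VIP. By this measure, the leading syndecan was Sdc3 in each of the 3 vehicle libraries and Sdc4 in each of the 3 OCA libraries. In CPM not divided by exon length, Sdc4 led in OCA+VIP libraries 1 and 3 only. In OCA+VIP library 2, Sdc3 was at 109.6 CPM and Sdc4 at 94.7 CPM. The share of Sdc3 was 26.6 points lower and that of Sdc4 30.8 points higher with OCA, each without overlap (two-sided exact permutation p = 0.1, the smallest possible, adjusted p = 0.175). The share of Sdc2 was 21.3% ± 4.17 and 17.1% ± 4.58 (SD, n = 3; exact permutation p = 0.4, adjusted p = 0.467). The ratio of Sdc4 to Sdc3 per kilobase was 0.581, 0.579 and 0.437 with DMSO+VIP and 3.06, 1.75 and 2.41 with OCA+VIP, 4.52-fold higher on average.

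**Figure D3:**
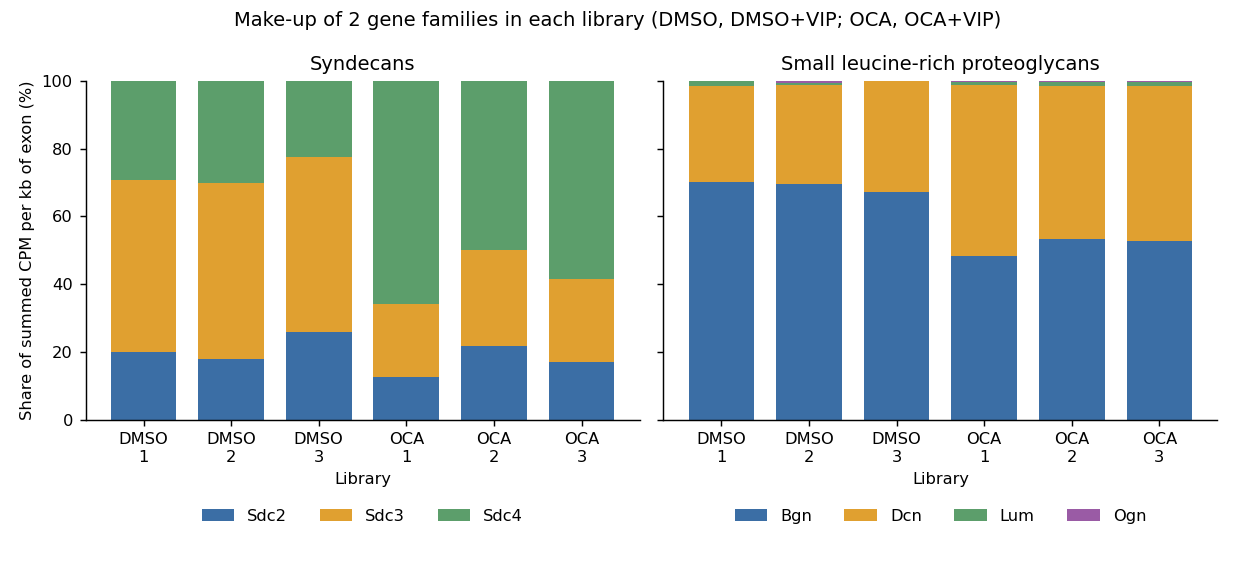
Share of each gene (colours) in the summed CPM per kilobase of exon of its family, in percent, with a bar for each library (DMSO, DMSO+VIP; OCA, OCA+VIP). In the left panel Sdc4 goes from 22.5% to 30.1% of the syndecans with vehicle to 49.8% to 65.9% with OCA, and in the right panel Dcn goes from 28.3% to 32.9% to 45.2% to 50.7%.

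Ordered by level per kilobase of exon, the members with vehicle were Bgn (140.2 ± 12.4 CPM per kb), Dcn (61.4 ± 6.14), Cd44 (42.3 ± 3.24), Sdc3 (40.8 ± 1.85), Sdc4 (21.8 ± 4.19), Sdc2 (16.8 ± 2.78), Lum (1.40 ± 1.62), Vcan (1.22 ± 0.617) and Ogn (0.302 ± 0.522; SD, n = 3), with Has2 at 0. The neighbours Cd44 and Sdc3, Sdc4 and Sdc2, and all neighbours from Lum down overlapped between libraries. With OCA the order was Bgn (132 ± 9.14), Dcn (122 ± 21.3), Sdc4 (43.5 ± 5.65), Cd44 (41.5 ± 1.02), Sdc3 (18.6 ± 3.09), Sdc2 (12.8 ± 3.72), Lum (2.77 ± 0.138), Ogn (0.582 ± 0.278) and Vcan (0.501 ± 0.186), again with Has2 at 0. Bgn and Dcn, Sdc4 and Cd44, Sdc3 and Sdc2, and Ogn and Vcan overlapped there. Thus, per kilobase, Bgn lay above Dcn in every vehicle library but not in every OCA library. Sdc4 overlapped Sdc2 with vehicle and Cd44 with OCA. In CPM not divided by exon length, Bgn lay above Dcn in every library. The table gives each gene 1 transcript, of 12415 bases for Vcan and 5266 for Cd44, and protein-coding transcripts of these genes with a RefSeq identifier range from 2273 to 12427 bases and from 1412 to 5614 bases in GENCODE, so levels per kilobase are understated where shorter forms prevail.

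Genes that build, bind, edit or cleave these molecules were followed in 8 lists of 113 genes, of which 66 passed the filter on low counts. Among them 14 fell and 0 rose (21.2% called, edgeR, beside 11.8% of all tested genes), with a median log2 fold change of -0.18 beside 0.00 for all tested genes. At unadjusted p under 0.05, 5 were higher and 21 lower. DESeq2 called 5 higher and 18 lower, and limma-voom 0 and 14. The 5 higher by DESeq2, named after their values were seen, were Itih1, Itih2, Sdc1, Adam17 and Fam20b.

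**Figure D4:**
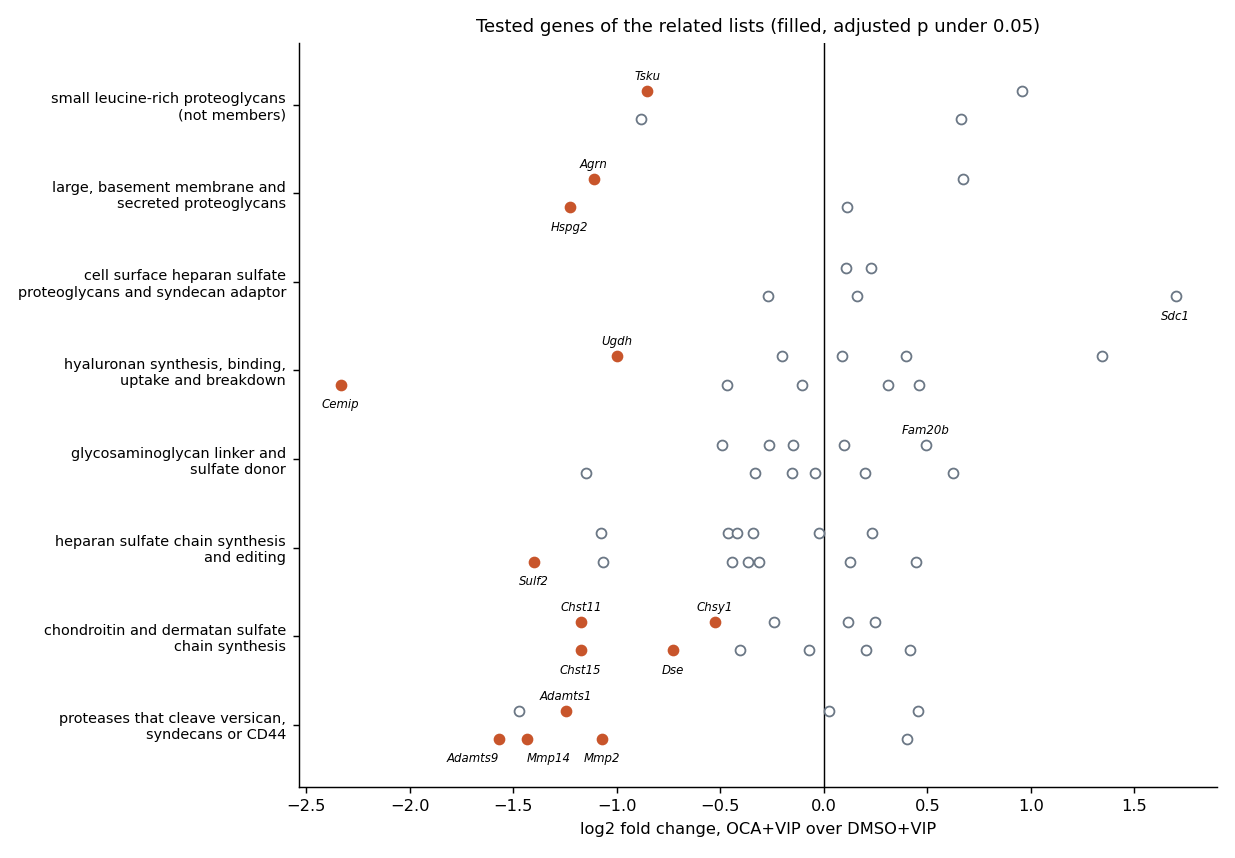
Log2 fold change of OCA+VIP over DMSO+VIP for the 66 tested genes of the 8 related lists (a row each; the 2 heights within a row only separate the points), filled where the edgeR adjusted p is under 0.05, with the genes chosen by the naming rule labelled. All 14 filled points lie to the left of 0, from -0.53 (Chsy1) to -2.33 (Cemip).

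In the list for hyaluronan, 2 of 10 tested genes fell, beside 6.04% of all tested genes. Cemip, a protein needed for the breakdown of extracellular hyaluronan, had 41.0, 28.0 and 36.0 CPM with DMSO+VIP and 6.73, 7.24 and 7.23 CPM with OCA+VIP. The groups lay far apart, and Cemip was 5.04-fold lower (-2.33 on the log2 scale with SE 0.29, edgeR adjusted p = 1.16e-05). Ugdh, the enzyme that makes UDP-glucuronate for hyaluronan and for heparan and chondroitin sulfate, had 362, 326 and 336 CPM with DMSO+VIP and 160.3, 176 and 181 CPM with OCA+VIP. Again no library overlapped, and Ugdh was 2.0-fold lower (-1.0 on the log2 scale with SE 0.12, edgeR adjusted p = 4.83e-06). Among all tested genes, 13.9% were lower without overlap. The other 8 tested genes of the list did not pass. Log2 fold changes were 0.40 and -0.20 for the hyaluronidases Hyal1 and Hyal2. They were 0.09 for Tmem2, which encodes a cell surface hyaluronidase, and -0.11 for the hyaluronan-binding gene Tnfaip6. The highest of the list was 1.34 for Itih4 (SE 0.67, edgeR adjusted p = 0.210), from 3.03 ± 2.03 to 7.82 ± 1.93 CPM (SD, n = 3). Itih1 and Itih2, which encode plasma proteins of hepatocytes that are coupled to hyaluronan, were at 0 with DMSO+VIP and at 2.83 ± 1.51 and 2.11 ± 0.731 CPM with OCA+VIP (SD, n = 3), too low to be tested by edgeR. Hyal1, Hyal2, Tmem2, Tnfaip6, Itih1, Itih2 and Itih4 were chosen after their values were seen.

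Among other proteoglycans, 1 of 4 tested small leucine-rich proteoglycan genes fell. Of large, basement membrane and secreted proteoglycans, 2 of 4 tested genes fell. Among all tested genes, 6.04% fell. In the small leucine-rich list, at unadjusted p under 0.05, 1 gene was higher and 1 lower. DESeq2 called 0 higher and 1 lower. The higher gene, Prelp, chosen after its values were seen, went from 7.86 ± 2.27 to 15.1 ± 5.46 CPM (SD, n = 3). It did not pass (0.96 on the log2 scale with SE 0.43, edgeR adjusted p = 0.155). Hspg2, perlecan, went from 44.1 ± 9.07 to 19.0 ± 2.61 CPM (SD, n = 3; -1.23 on the log2 scale with SE 0.23, edgeR adjusted p = 0.00120), and Agrn, agrin, from 63.7 ± 13.8 to 29.5 ± 11.9 CPM (-1.11, SE 0.23, adjusted p = 0.00279). Both are heparan sulfate proteoglycans of basement membranes. The call of Hspg2 was lost without the libraries numbered 1 (adjusted p = 0.0523) and that of Agrn without those numbered 3 (adjusted p = 0.0603). Tsku, tsukushi, had a log2 fold change of -0.85 (edgeR adjusted p = 0.0129), a call that was lost without either DMSO+VIP library 1 or 2 or OCA+VIP library 1 or 3 (adjusted p = 0.0581 to 0.0774). Of 5 tested genes for other cell surface heparan sulfate proteoglycans and the syndecan adaptor syntenin, 0 passed by edgeR, with 1 higher and 0 lower at unadjusted p under 0.05, 1 higher by DESeq2 and 0 by limma-voom. That gene was Sdc1, the syndecan typical of epithelial cells and hepatocytes, with 3.94, 4.23 and 1.61 CPM with DMSO+VIP and 6.84, 16.0 and 9.39 CPM with OCA+VIP (1.70 on the log2 scale with SE 0.58, edgeR adjusted p = 0.0602). Hepatocyte markers were also higher in the OCA+VIP group, and their part in the values of Sdc1, Itih1, Itih2 and Itih4 was not tested.

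For the sugar chains, 4 of 11 tested genes of chondroitin and dermatan sulfate synthesis fell, and 1 of 13 of heparan sulfate synthesis and editing. Of the linker and sulfate donor steps, 0 of 11 passed. Among all tested genes, 6.04% fell. For heparan sulfate, 1 gene was higher and 6 lower at unadjusted p under 0.05, and DESeq2 called 0 higher and 5 lower, while limma-voom called 1 lower. For chondroitin and dermatan sulfate, 0 were higher and 4 lower by each of these 3 counts. In the linker list, at unadjusted p under 0.05, 1 gene was higher and 2 lower, DESeq2 called 1 higher and 0 lower, and limma-voom 0. The sulfotransferase genes Chst15 and Chst11, which act on chondroitin sulfate, had log2 fold changes of -1.17 each (edgeR adjusted p = 0.00249 and 0.00264). Both calls were lost without the libraries numbered 1, and without those numbered 3 (adjusted p up to 0.0682 for Chst15 and 0.0658 for Chst11). Chsy1, a chondroitin synthase, and Dse, an epimerase that turns chondroitin into dermatan sulfate, had log2 fold changes of -0.53 and -0.73 (edgeR adjusted p = 0.0253 and 0.0254). The call of Chsy1 was lost without any 1 library other than OCA+VIP library 2 (adjusted p = 0.0516 to 0.169), and that of Dse without DMSO+VIP library 2 or any 1 OCA+VIP library (adjusted p = 0.0575 to 0.133). Sulf2, a secreted enzyme that takes sulfate groups off heparan sulfate, went from 122 ± 7.14 to 46.7 ± 15.5 CPM (SD, n = 3; -1.40 on the log2 scale with SE 0.17, edgeR adjusted p = 1.13e-05). Fam20b, a kinase that acts on the linker, had 0.49 and did not pass (edgeR adjusted p = 0.0768).

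In the list of proteases that cleave versican, syndecans or CD44, 4 of 8 tested genes fell, beside 6.04% of all tested genes. Adamts9, a versican-cleaving protease, was 2.96-fold lower, from 70.6 ± 17.4 to 24.2 ± 3.39 CPM (SD, n = 3; -1.57 on the log2 scale with SE 0.21, edgeR adjusted p = 2.64e-05). Adamts1, also a versican-cleaving protease, was 2.37-fold lower, and Mmp14, a membrane-bound protease that can shed CD44 and syndecans, 2.70-fold lower (edgeR adjusted p = 1.06e-06 and 2.37e-06). Mmp2 had a log2 fold change of -1.07 (adjusted p = 0.0191), which was lost without DMSO+VIP library 1 or 2 or OCA+VIP library 3 (0.0560 to 0.105). Among the sheddases, Adam10 had 0.03 and Adam17 0.40, and neither passed (edgeR adjusted p = 0.925 and 0.0534). These 2 were chosen after their values were seen.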

How the data were processed

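The authors deposited 1 table of expected counts per gene over the exons of 1 RefSeq transcript (steps of 0.5, not adjusted for library size), in the layout that HOMER writes. The submitters' processing notes name mm10, STAR, HOMER and DESeq2 without role or version. Strand use and duplicate removal are not given in the sources used here. Columns were assigned to groups by name, since their numbers and the letters of the titles could not be linked. Exon length and the number of genomic copies, which is 1 for every member, come from the same table.

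Rounded counts were tested in R 4.3.3 by edgeR 4.0.16 (TMM, filterByExpr with minimum count 10 and total 15, quasi-likelihood F test with 4 residual degrees of freedom, two-sided, Benjamini-Hochberg over all tested genes, threshold 0.05). The code for this fit was tried on simulated negative binomial counts. These did not have the steps of 6 seen in the low counts, so the effect of those steps was not simulated. CPM are scaled to column totals, and the TMM factors were 0.959 to 1.06. DESeq2 1.42.0, limma-voom (limma 3.58.1), other scalings, filters and thresholds, counts divided by 6, a replicate block and leaving out libraries were alternatives. Exact tests used scipy 1.17.1, exon overlaps and transcript lengths GENCODE, promoters RefSeq. Protein sequences were not analysed here, and 1 lymphocyte marker is not reported here.

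The members and lists were chosen with earlier results of these data known. Named are all members and, per related list, up to 4 called genes ranked by p (from 1 CPM on average), or the first in rank where none was called. Also named are the 3 genes of at least 10 CPM closest in pattern to the member of smallest p in each direction. Others are given as chosen after their values were seen.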

Additional observations from a re-analysis of the deposited data

How the results depend on the processing

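The calls of Dcn, Sdc3 and Sdc4 kept their direction and passed the threshold in all 57 alternative fits of these 3 genes. Of 93 fits of the 5 other tested members, 5 passed the threshold: Vcan without the filter on low counts, with DESeq2, without DMSO+VIP library 2 and without the libraries numbered 2, and Sdc2 without the libraries numbered 2. The sign of Cd44 turned to 0.0016 without DMSO+VIP library 1, in a range from -0.10. The count of called members was 3 to 5 when libraries were left out. Of all genes, 1328 were called, 2201 with DESeq2, 648 at a threshold of 0.01 and 433 to 1478 with libraries left out (877 when DMSO+VIP library 1 was dropped, 737 for OCA+VIP library 1 and 751 for OCA+VIP library 3). Of the related genes, 14 were called, 23 with DESeq2, 22 at a threshold of 0.1 and 7 to 17 with libraries left out. The causes were not tested. No pairing by library number was seen: deviations from the group means correlated at -0.04, -0.05 and 0.03 for equal numbers. Not every library correlated best with its own number, though those numbered 3 did. With 3 libraries per group, such correlations cannot exclude a shared animal or culture. With the number as a replicate block, edgeR called 1118 genes, 3 members and 15 related genes, and DESeq2 1690, 3 and 22. The 56 alternative values were of the difference between the groups in each of the 7 family shares. All lay within 1 SD between libraries of the reported difference. For values that left out 1 of the 3 libraries of a group this was fixed in advance, since such a shift cannot reach that SD. Those values are therefore no test of stability. Over all alternatives the difference was -28.4 to -25.0 points for Sdc3 and 26.9 to 34.9 for Sdc4. It was -18.5 to -15.9 points for Bgn and 15.3 to 18.4 for Dcn. The shares themselves were not compared across settings, and without division by exon length Sdc3 led Sdc4 in OCA+VIP library 2. Depth limits Has2, Ogn and Lum, which rest on at most 117.5 counts per group.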

Other observations

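Among 9027 tested genes with a mean of at least 10 CPM that are not members, those closest in pattern to Sdc3 over the 6 libraries were Bhlhe40, a circadian and hypoxia-responsive repressor, Fgfr2, a fibroblast growth factor receptor, and Asns, asparagine synthetase. Their log2 CPM, each centred on the gene's mean, differed from that of Sdc3 by a root mean square of 0.0428, 0.0545 and 0.0684, and their log2 fold changes were -1.09, -1.08 and -1.19. Closest to Dcn were Wipi2, an autophagy protein gene, Rnd3 and Cdc42ep3, at 0.0881, 0.0892 and 0.105. Their log2 fold changes were 1.02, 0.95 and 0.90. The likeness includes the difference between the groups and is a description over 6 libraries.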
